A study of Mus musculus with 46 samples.

Results

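Torin 1, an inhibitor of the mTOR kinase, and loss of Ctu1, a subunit of the enzyme that thiolates the wobble uridine of certain tRNAs, were combined in ribosome footprints of EPP2 cells, and the question was which genes responded to the pair of manipulations other than by the sum of the single effects. For every gene, the log2 effect of torin 1 in control cells was subtracted from the log2 effect of torin 1 in Ctu1-deficient cells. This difference is called the interaction here. A negative value means that the footprints of a gene were lower in torin 1-treated Ctu1-deficient cells than the sum of both single effects gives. It was computed from the 23 footprint libraries among the 46 libraries of the series, for the 9857 genes that stand on 1 entry each in the DMSO and in the torin 1 count tables. Of these genes, 64 had an interaction with an adjusted p under 0.05 (edgeR quasi-likelihood test, Benjamini-Hochberg adjustment), which is 0.649% of the genes tested, and all 64 values were negative.

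EPP2 is a murine pancreatic cancer line, and the cells stem from a single-cell-derived clone with a doxycycline-inducible Cas9. Ctu1 was disrupted in cells with guide RNAs against Ctu1 by 300 ng/ml doxycycline for 4 days (inducible knockout, Ctu1 iKO, labelled Ctu1KO). Control cells are labelled WT, and the methods name 2 kinds of control, guides that target non-coding regions and cells that received no doxycycline, without saying which of them these libraries hold. The labels repeat the induction protocol for every sample, and it speaks of the knockout alone. Both genotypes were treated with 300 nM torin 1 or with DMSO, its solvent, for 2 h. There were 6 control DMSO, 6 control torin 1, 5 Ctu1 iKO DMSO and 6 Ctu1 iKO torin 1 footprint libraries, and the same cultures were also sequenced as poly(A) RNA. The methods and the legends of the study differ in how many of these replicates are independent experiments, so p-values may measure technical spread in part.

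The mTOR complex mTORC1 promotes the translation of TOP mRNAs. These transcripts begin with a cytosine that is followed by a run of pyrimidines, the terminal oligopyrimidine tract, and they encode the cytosolic ribosomal proteins, the elongation factors and further parts of the translation machinery. Ctu1 and Ctu2 add the sulphur of the mcm5s2 modification to the wobble uridine (U34) of the tRNAs that read AAA, CAA and GAA codons, and the Elongator complex makes the other part of that modification. Both systems therefore bear on the synthesis of proteins, one through the choice of mRNAs and one through the decoding of codons.

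Footprint counts are relative within a library, so a change shared by all genes cannot be seen. Footprint totals lay between 4602092 and 52907878 counts per library, with a median of 15387951. Ctu1 itself (chromosome 7 of GRCm38, 43672016 to 43678298) is listed in the DMSO tables only, where it came to 1.78 ± 0.41 counts per 1000000 counts of the library total (CPM) in Ctu1 iKO (SD, n = 5) and to 2.52 ± 0.65 CPM in control (SD, n = 6), with overlapping groups (two-sided exact permutation test, p = 0.0563). Gene counts do not show whether the remaining transcripts carry an edit, so the knockout was not checked by them. All further CPM values rest on library sizes scaled by edgeR's TMM factors, except in the comparison with AAA content, which used library totals. Of the markers, all 9 mesenchymal genes but 3 of 9 epithelial genes were listed (Krt8, Krt18 and Krt19, not Epcam or Cdh1), and the acinar, immune and endothelial markers were not listed. On an axis set by the mean control DMSO profile at 0 and the mean control torin 1 profile at 1, footprint libraries of Ctu1 iKO lay between 0.24 and 0.36 with DMSO and between 1.19 and 1.34 with torin 1, as their labels say. In RNA-seq of the same cultures, however, the libraries labelled Ctu1 iKO DMSO 4 and 5 lay at 1.76 and 1.68 and those labelled Ctu1 iKO torin 1 5 and 6 at 0.62 and 0.74, against their treatment labels. The main counts of footprint calls are therefore given with and without these 4 cultures.

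Annotated transcription starts of several genes with a called interaction lie beside a tract of the TOP kind, and the following windows of 30 bases show it. A tract was counted where a C was followed by C or T only over at least 8 bases and began within 25 bases of an annotated RefSeq start on either side, on the sense strand (GRCm38). The tract stands in capitals and the bases around it in lower case. Eef1a1 encodes the factor that brings aminoacyl-tRNA to the ribosome, Rps12, Rps27, Rps18 and Rps6 encode proteins of the small subunit, Rpl27a one of the large subunit, Eif3f a subunit of the initiation factor eIF3, and Vdac1 a channel of the outer mitochondrial membrane.
Eef1a1, chr9:78481708-78481737, minus strand: tggctccgCCCTCTTCCCgagggtggggga
Rps12, chr10:23787180-23787209, minus strand: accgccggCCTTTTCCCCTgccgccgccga
Rps27, chr3:90213629-90213658, minus strand: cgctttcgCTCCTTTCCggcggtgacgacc
Rps18, chr17:33955646-33955675, minus strand: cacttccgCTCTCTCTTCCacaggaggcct
Rpl27a, chr7:109519183-109519212, plus strand: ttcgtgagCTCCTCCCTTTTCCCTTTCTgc
Rps6, chr4:86857347-86857376, minus strand: aagtcgggCCTCTTTTTCgtgacgcctccc
Eif3f, chr7:108934403-108934432, plus strand: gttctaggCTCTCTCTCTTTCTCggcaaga
Vdac1, chr11:52361596-52361625, plus strand: agacccagCTTCCTCCgccgagaggacgaa

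Such a tract was found for 23 of the 47 genes with a called interaction and an annotated start (48.9%), for 35 of 58 ribosomal protein genes (60.3%) and for 1533 of 7829 genes tested (19.6%). It was found for 9 of 69 nucleolar ribosome biogenesis factors (13.0%). Among the additive genes described below that were lower with torin 1 in both genotypes, 45 of 235 held one (19.1%). A tract at an annotated start is a match of letters, and the start used in EPP2 cells was not measured.

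In control cells, torin 1 changed the footprints of 675 genes, 6.85% of those tested, with 278 higher and 397 lower. In Ctu1 iKO cells, 1183 genes were called, 12% of those tested, with 558 higher and 625 lower. Both sets shared 522 genes, and each of these moved in the same direction in both genotypes. A further 153 genes passed the threshold in control alone and 661 in Ctu1 iKO alone, but a difference in calls is not a test of the difference between the effects. That test is the interaction. A term for replicates 1 and 2 against 3 to 6 gave 1119 called genes in control and 1808 in Ctu1 iKO, over 1.5 times as many. Without the 4 cultures named above, 704 genes were called in Ctu1 iKO.

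The 1336 genes called in either genotype were sorted by the interaction. A stronger response, with a called interaction in the direction of the torin 1 effect, was found for 64 genes, while the weaker and the opposite class held 0 genes each in edgeR's quasi-likelihood test. At an unadjusted p under 0.05, there were 454 interactions, 290 lower and 164 higher, and DESeq2 called 109 genes, 3 of them higher. For 522 genes, the 95% interval of the interaction lay within 1.5-fold of 0 in both directions, and these responses were classed as additive within that margin. The remaining 750 responders were unresolved, since their interval reached beyond the margin although the interaction missed the threshold. The median standard error of the interaction was 0.12 in the stronger, 0.16 in the additive and 0.24 in the unresolved class, and the median count per gene was 9634, 1635 and 454 respectively. A term for replicates 1 and 2 against 3 to 6 gave 112 stronger, 2 weaker, 8 opposite and 1017 additive responses, so the empty classes and the additive count depend on this choice. Without the 4 cultures, 42 responses were stronger and 222 additive. The calls of 22 of the 64 genes were then lost, at adjusted p-values from 0.0508 to 0.259 (edgeR), among them those of Eef2, Rps3, Rps6, Tpt1, Eif3h, Hspa8, Actg1 and Khdrbs2. A lost call did not always come with a smaller effect. Without the 4 cultures, the interaction of Eef2 was -0.90 against -0.89 with them, and that of Khdrbs2 -0.97 against -1.36.

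**Figure D1:**
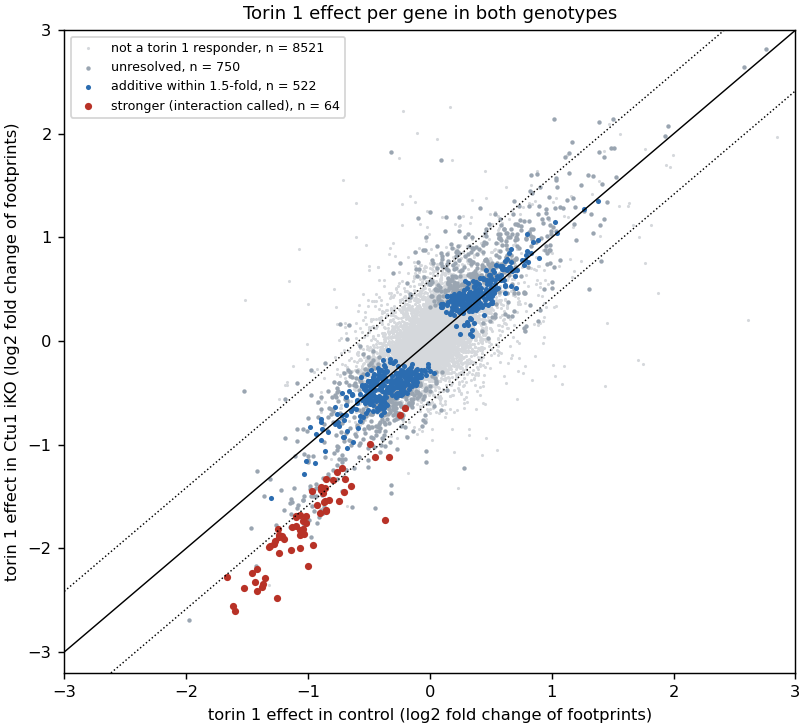
Torin 1 effect on footprints in control (horizontal axis, log2 fold change) and in Ctu1 iKO (vertical axis, log2 fold change), with 1 point per gene and 1 of the 9857 genes outside the axes. The solid line marks equal effects and the dotted lines a difference of 1.5-fold. The 64 stronger responses lie below the lower left part of the solid line, and the 522 additive responses lie along it in both directions.

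Among the 64 genes, 39 encode cytosolic ribosomal proteins and 8 belong to the other TOP mRNAs listed. At their median, torin 1 left 48.5% of the footprints in control and 29.4% in Ctu1 iKO, and the median interaction was -0.69, between -1.36 and -0.44. With DMSO, 1 of the 64 genes differed between the genotypes in edgeR's test (Eef1a1, lower in Ctu1 iKO), where 2.76% of all genes were called, 1.68% higher and 1.08% lower. With torin 1, 63 of the 64 differed, where 8.41% of all genes were called, 3.93% higher and 4.48% lower. These values describe genes that the interaction itself selected. Of the 64, 48 were called in each of the 23 fits that left out 1 library, and these fits called between 48 and 64 genes. Every Ctu1 iKO torin 1 library lay below all 17 other libraries for 63 of the 64, and for 1.58% of all genes tested. At the threshold, the last gene inside was Rpl37 with an interaction of -0.67 (adjusted p = 0.0478, edgeR) and the first outside was Gm4737 with -0.53 (adjusted p = 0.0574, edgeR).

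Ribosomal proteins lost a larger share of footprints to torin 1 when Ctu1 was disrupted. The 79 cytosolic ribosomal protein genes took 8.31% to 9.68% of all footprint counts in control DMSO libraries (median 8.77%) and 4.45% to 5.12% in control torin 1 libraries (median 4.89%). In Ctu1 iKO they took 8.09% to 9.11% with DMSO (median 8.60%) and 2.84% to 3.25% with torin 1 (median 3.17%). The DMSO groups of both genotypes overlapped, whereas the torin 1 groups did not overlap with each other or with DMSO. The 33 other TOP mRNAs took 4.48% to 4.72% in control DMSO, 2.62% to 3.05% in control torin 1, 3.85% to 4.25% in Ctu1 iKO DMSO and 1.69% to 2.02% in Ctu1 iKO torin 1, and here none of the groups overlapped. The 82 nucleolar biogenesis factors, which assemble ribosomes, took 0.921% to 1.36% in control torin 1 and 0.743% to 1.14% in Ctu1 iKO torin 1, and these groups overlapped.

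**Figure D2:**
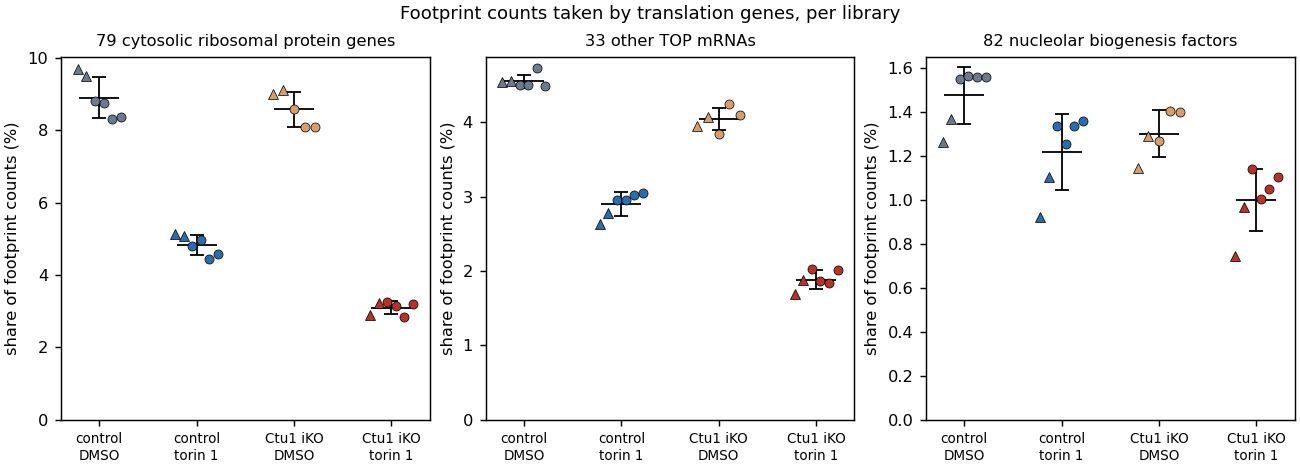
Share of all footprint counts (vertical axis, %) taken by 3 gene lists in each of the 23 libraries, by group. Triangles are replicates 1 and 2, circles replicates 3 to 6, and bars the mean ± SD. Ribosomal proteins came to 3.09% ± 0.18 in Ctu1 iKO torin 1 (n = 6) and 4.84% ± 0.28 in control torin 1 (n = 6), and the nucleolar factors overlapped between these groups.

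By gene, all 79 ribosomal proteins had a negative interaction, 39 were called lower and none higher, against 0.649% called lower among all genes. The 2 sets differ in depth, since the median count was 13156 in the called and 14378 in the other ribosomal proteins, against 492 over all genes. An unadjusted p under 0.05 was reached by 72 of the 79, against 454 of the 9857 genes tested. The median interaction was -0.64, and that of all genes tested was 0.01. The median torin 1 effect on these genes was -0.97 in control and -1.58 in Ctu1 iKO on the log2 scale, which left 51.1% and 33.4% of the footprints, and the median effect of Ctu1 loss with DMSO was -0.08. In 65 of the 79, every Ctu1 iKO torin 1 library lay below all other libraries, against 1.58% of all genes, and in 77 the DMSO groups of both genotypes overlapped. Large and small subunits showed similar values, with 23 of 47 and 16 of 32 called and medians of -0.64 and -0.62. Replicates 1 and 2, which stood apart from replicates 3 to 6 along the first principal component of the footprints, gave a median of -0.68 for the 79 genes, and replicates 3 to 6 gave -0.60. The list was known to respond to torin 1 when it was chosen.

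**Figure D3:**
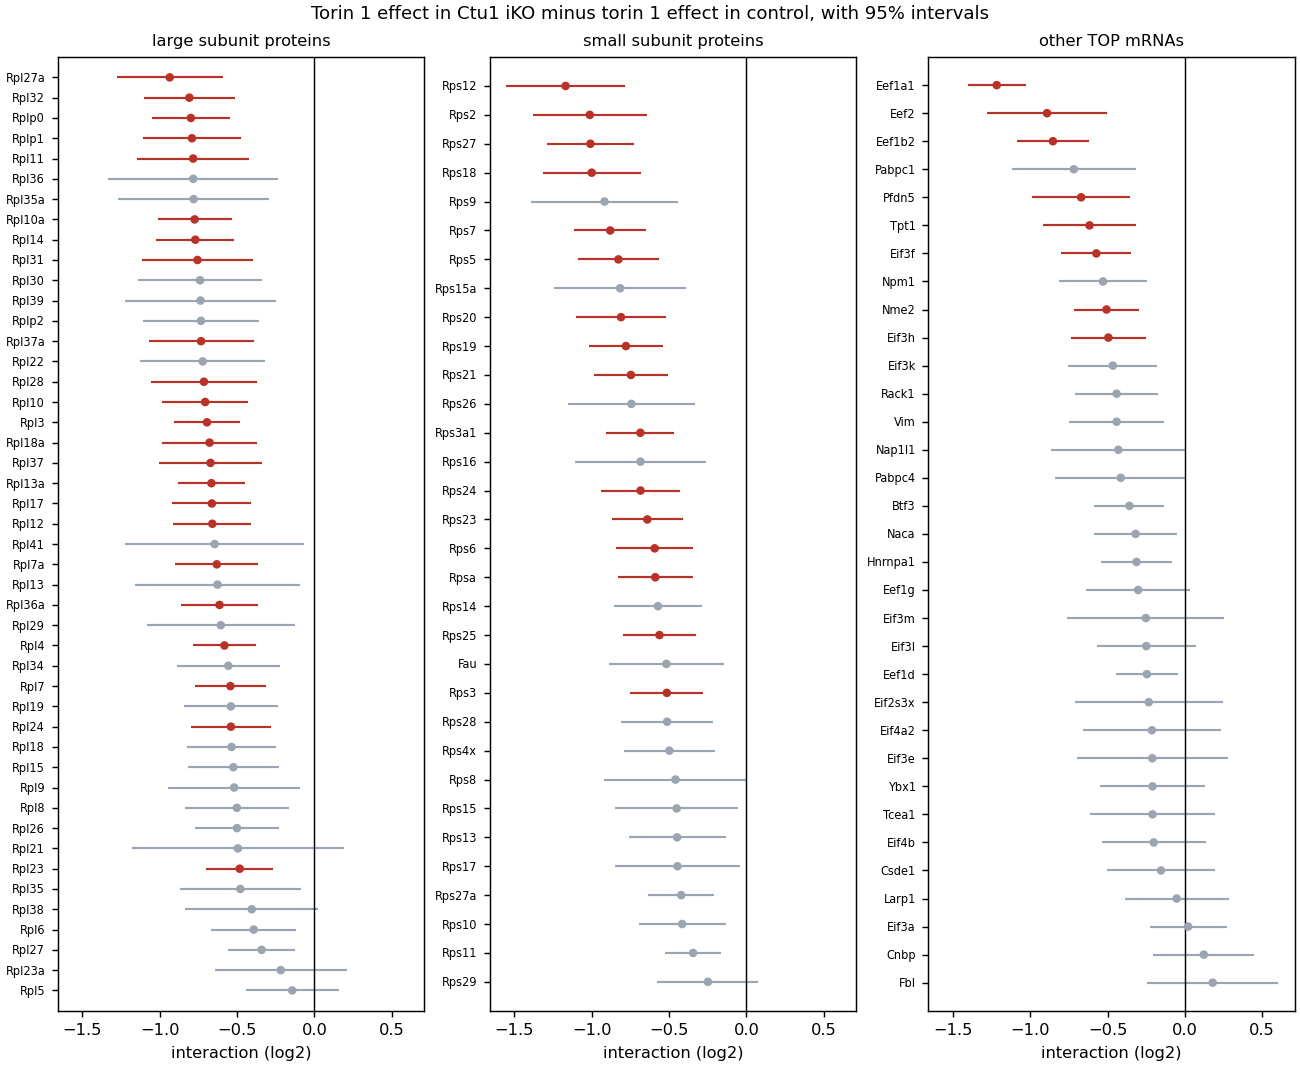
Interaction per gene (horizontal axis, log2) with its 95% interval for 46 of the 47 large subunit proteins, 32 small subunit proteins and 33 other TOP mRNAs. Red marks an adjusted p under 0.05. All ribosomal proteins shown lie left of 0, from Rps12 at -1.17 to Rpl5 at -0.14, while 3 of the other TOP mRNAs lie right of it.

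Within the small subunit, Rps12 had the most negative interaction. Rps12 had lowest, median and highest levels of 631, 729 and 931 CPM in control DMSO and of 260.4, 406 and 460.0 CPM in control torin 1. The 5 Ctu1 iKO DMSO libraries held 674, 708, 709, 737 and 808 CPM, and those of Ctu1 iKO torin 1 130.1, 167 and 197 CPM (lowest, median and highest). The DMSO groups overlapped, every control torin 1 library lay below them, and every Ctu1 iKO torin 1 library lay below all others. Rps12 therefore kept 50.0% of its footprints in control and 22.2% in Ctu1 iKO, with an interaction of -1.17 (SE 0.19, adjusted p = 0.000864, edgeR). Rps27, the zinc finger protein eS27, followed a steeper course in both genotypes. Control DMSO libraries held 893, 1009.8 and 1133 CPM of Rps27 (lowest, median and highest), and control torin 1 libraries 299.9, 319.7 and 415 CPM. In Ctu1 iKO, Rps27 stood at 866, 879, 946, 1051 and 1146 CPM with DMSO and at 139.9, 165 and 175 CPM with torin 1 (lowest, median and highest). Torin 1 left 33.1% and 16.4%, and the interaction was -1.01 (SE 0.14, adjusted p = 0.000193, edgeR). Rps2, at the mRNA entry of the subunit, and Rps18, in its head, had interactions of -1.01 (SE 0.18) and -1.0 (SE 0.15). The pattern of overlapping DMSO groups, lower control torin 1 libraries and still lower Ctu1 iKO torin 1 libraries was the same in these 4 genes.

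Rps25 and Rps3 were named in any case because of the study's experiments on their codons. The footprint level of Rps25 ran from 991 to 1280.0 CPM in control DMSO (median 1151) and from 569 to 682 CPM in control torin 1 (median 626). It was 992, 1029.7, 1058, 1186 and 1215 CPM in the Ctu1 iKO DMSO libraries and ran from 369.7 to 445 CPM in Ctu1 iKO torin 1 (median 408). Again the torin 1 groups of both genotypes did not overlap, with Ctu1 iKO lower, while the DMSO groups did. The interaction of Rps25 was -0.56 (SE 0.11, adjusted p = 0.0123, edgeR). For Rps3, it was -0.51 (SE 0.11, adjusted p = 0.0269, edgeR), with 53.8% of the footprints left in control and 37.7% in Ctu1 iKO, and the call held in 13 of 23 fits that each left out 1 library. Rpl29, the third such gene, was not called in edgeR's test without a term for replicates, but it was called in 1 of the alternative fits. Rpl29 had lowest, median and highest levels of 148, 169 and 222 CPM in control DMSO and of 94.1, 97.2 and 142 CPM in control torin 1. The 5 Ctu1 iKO DMSO libraries held 135, 141, 153, 165 and 186 CPM, and those of Ctu1 iKO torin 1 38.9, 57.8 and 86.6 CPM (lowest, median and highest). The Ctu1 iKO torin 1 libraries lay below all others, while the control torin 1 group overlapped with Ctu1 iKO DMSO. The torin 1 effect on Rpl29 was -0.71 in control and -1.31 in Ctu1 iKO, and its interaction of -0.60 had a 95% interval from -1.08 to -0.13 (adjusted p = 0.734, edgeR). Rps6, the substrate by which mTORC1 activity is often read, gave -0.59 (SE 0.12, adjusted p = 0.0114, edgeR).

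In the large subunit, Rpl27a had the most negative interaction, -0.94 (SE 0.17, adjusted p = 0.00298, edgeR). Control DMSO libraries held 619, 746 and 843 CPM of Rpl27a (lowest, median and highest), and control torin 1 libraries 231, 293 and 340.4 CPM. In Ctu1 iKO, Rpl27a stood at 584, 606, 702, 761 and 784 CPM with DMSO and at 107, 144 and 163 CPM with torin 1 (lowest, median and highest). The stalk proteins, which recruit the translation factors, were also among the called genes. The footprint level of Rplp0 ran from 1107 to 1268 CPM in control DMSO (median 1210.1) and from 630.1 to 829 CPM in control torin 1 (median 711). It was 1003, 1084, 1142, 1147 and 1197 CPM in the Ctu1 iKO DMSO libraries and ran from 329 to 460.4 CPM in Ctu1 iKO torin 1 (median 366). In Rpl27a and Rplp0 alike, the DMSO groups overlapped and the torin 1 groups did not. Torin 1 left 59.8% of Rplp0 in control and 34.4% in Ctu1 iKO, an interaction of -0.80 (SE 0.12, adjusted p = 0.000674, edgeR). Rplp1 differed from the other ribosomal proteins named so far in that its torin 1 effect in control, -0.33, missed the threshold (adjusted p = 0.0628, edgeR), whereas its effect in Ctu1 iKO was -1.12 (adjusted p = 3.25e-08, edgeR). The interaction of Rplp1 was -0.79 (SE 0.15). Further called large subunit genes lay between Rpl32 at -0.81 and Rpl23 at -0.48.

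The 40 ribosomal proteins that missed the threshold also had negative interactions, with a median of -0.51 against -0.71 in the 39 that were called. Their median standard error was 0.19 and that of the called genes 0.12, while the median counts were similar, at 14378 and 13156. The split rests on the fit, since 19 of the 40 were called by DESeq2 and 26 with a term for replicates 1 and 2 against 3 to 6. Of all 9857 genes tested, these fits called 109 and 122 in either direction. Rps9 missed the threshold at -0.92 (SE 0.23, adjusted p = 0.0681, edgeR) and Rps15a at -0.82 (SE 0.21, adjusted p = 0.0729, edgeR). Values close to 0 included those of Rpl5, Rpl23a and Rps29, at -0.14, -0.22 and -0.25. Rpl5, which carries the 5S rRNA into the ribosome, had footprint levels of 371, 443 and 517 CPM in Ctu1 iKO torin 1 and 382, 506 and 579 in control torin 1 (lowest, median and highest), and these groups overlapped. Its interval from -0.44 to 0.16 lay within the additive margin, as did those of 4 further ribosomal proteins, and 35 were unresolved.

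Among the other TOP mRNAs, the elongation factors had the most negative interactions. Eef1a1 had lowest, median and highest levels of 11877, 13386 and 13728 CPM in control DMSO and of 4910.2, 5467 and 5916 CPM in control torin 1. The 5 Ctu1 iKO DMSO libraries held 10217, 10339.7, 10394, 10508 and 11113 CPM, and those of Ctu1 iKO torin 1 1709.9, 1890.1 and 2086 CPM (lowest, median and highest). All 4 groups were separate, in the order control DMSO, Ctu1 iKO DMSO, control torin 1 and Ctu1 iKO torin 1. For Eef1a1, torin 1 left 41.8% in control and 18% in Ctu1 iKO, and the interaction was -1.22 (SE 0.09, adjusted p = 7.28e-09, edgeR). Eef1b2, part of the factor that exchanges GDP for GTP on eEF1A, had an interaction of -0.85 (SE 0.11, adjusted p = 0.000193, edgeR). Eef2, the translocation factor, gave -0.89 (SE 0.19, adjusted p = 0.0168, edgeR), and torin 1 left 37.1% and 20% of its footprints. Together, 8 of the 33 genes were called lower and none higher, against 0.649% called lower among all genes, the median interaction was -0.32, and 30 of 33 values were negative. In 15 of the 33, every Ctu1 iKO torin 1 library lay below all others, against 1.58% of all genes.

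The further called TOP mRNAs had smaller interactions. Tpt1, the translationally controlled tumour protein, was at -0.62 (adjusted p = 0.0444, edgeR) and was called in 6 of the 23 fits that left out 1 library. The eIF3 subunits Eif3f and Eif3h were at -0.57 (adjusted p = 0.00632) and -0.50 (adjusted p = 0.0444) in edgeR's test. Eif3h was the least stable of the 64 genes and was called in 4 of these fits. Pfdn5, a subunit of the prefoldin chaperone, was the gene among the 64 whose Ctu1 iKO torin 1 libraries did not lie below all others. Control DMSO libraries held 167, 182 and 204 CPM of Pfdn5 (lowest, median and highest), and control torin 1 libraries 121, 138 and 144 CPM. In Ctu1 iKO, Pfdn5 stood at 184, 196, 247, 249 and 293 CPM with DMSO and at 88.0, 109 and 129 CPM with torin 1 (lowest, median and highest). Its interaction was -0.67 (adjusted p = 0.0343, edgeR), called in 9 of the 23 fits. Pabpc1, the poly(A)-binding protein, had the lowest torin 1 effects of the list, -1.97 in control and -2.69 in Ctu1 iKO. Its Ctu1 iKO DMSO libraries already lay below every control DMSO library, and its interaction of -0.72 (95% interval from -1.12 to -0.32) missed the threshold (adjusted p = 0.116, edgeR). Pabpc1 was called in 4 alternative fits, among them DESeq2, replicates 3 to 6 alone and the fit without control torin 1 replicate 1. In that library, the level of Pabpc1 was the lowest of the control torin 1 group.

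**Figure D4:**
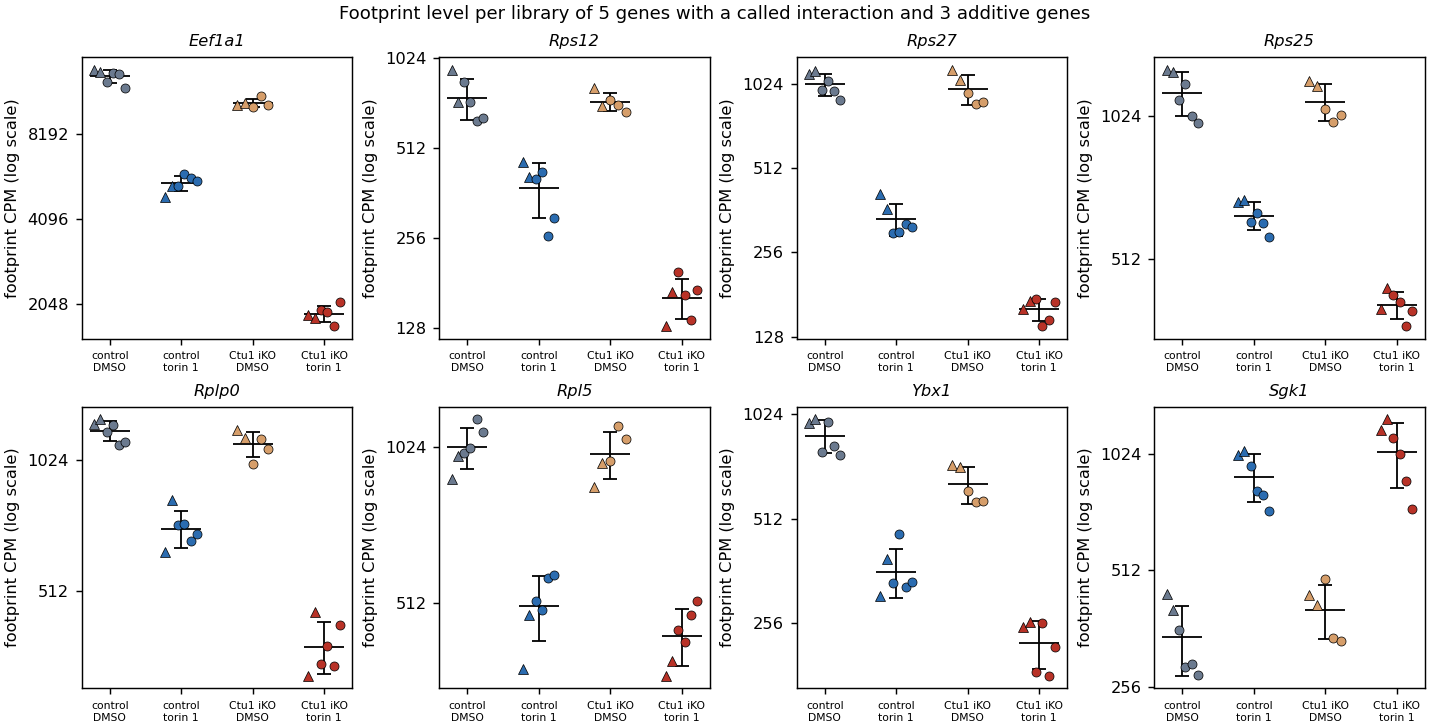
Footprint level (vertical axis, CPM on a log scale) of 8 genes in each of the 23 libraries, by group, with triangles for replicates 1 and 2, circles for replicates 3 to 6 and bars for the mean ± SD. Eef1a1, Rps12, Rps27, Rps25 and Rplp0 have a called interaction, whereas the intervals of Rpl5, Ybx1 and Sgk1 lay within the additive margin. Ybx1 also has its lowest values in Ctu1 iKO torin 1.

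Of the 17 called genes outside both lists, 13 hold a stretch that matches the coding sequence of a ribosomal protein or TOP gene. On the same strand, these are Rps18-ps5 and Rps18-ps6 (99.3% and 99.1% identical to Rps18), Rps27rt (95% to Rps27), Rpl10-ps3 (100% to Rpl10), Rpl36a-ps1 (97.8% to Rpl36a), the readthrough gene Gm45713 (100% to Rpl13a) and Rpl22l1 (74.6% to Rpl22). The interactions were -0.99 and -0.98 for the Rps18 copies beside -1.0 for Rps18, and -0.94 for Rps27rt beside -1.01 for Rps27. Reads of such pairs cannot be told apart where the sequences are the same, and the values of these copies are uncertain for that reason. On the opposite strand lie, among others, the matches of Gm2174, Gm5148 and Rps23rg1 (Rps23), Gucd1 (Rplp0) and Khdrbs2 (Rps3a1, 92.0% identical over 176 bases). Whether the footprint counting used strand is not given in the sources used here. Khdrbs2 had the most negative value of all called genes, -1.36 (SE 0.28, adjusted p = 0.0153, edgeR), at levels of 2.39, 4.06 and 5.29 CPM in Ctu1 iKO torin 1 and 9.79, 12.4 and 15.8 CPM in control DMSO. Without the 4 cultures it stood at -0.97 and was not called (adjusted p = 0.247, edgeR), above Eef1a1 and Rps12, and it was -0.73 in replicates 1 and 2 and -1.69 in replicates 3 to 6. Whether these counts come from the matching stretch was not tested.

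The remaining 4 called entries had no such match. AC124742.1 had no annotation entry, and the others were Hspa8, Actg1 and Vdac1. Hspa8, the constitutive cytosolic chaperone Hsc70, was the one called gene among 23 heat shock proteins, against 0.649% of all genes. The footprint level of Hspa8 ran from 6555 to 8109 CPM in control DMSO (median 7407) and from 3421 to 4861 CPM in control torin 1 (median 4679). It was 5848, 6031, 6067, 6273 and 6524 CPM in the Ctu1 iKO DMSO libraries and ran from 2365 to 2821 CPM in Ctu1 iKO torin 1 (median 2630.2). All 4 groups were separate, with Ctu1 iKO torin 1 lowest. The interaction of Hspa8 was -0.51 (SE 0.12, adjusted p = 0.0343, edgeR), and the call held in 8 of 23 fits without 1 library. Actg1, cytoplasmic gamma actin, was the one called gene among 30 actin cytoskeleton genes, against the same share of all genes. In control, its torin 1 effect of -0.20 missed the threshold (adjusted p = 0.0589, edgeR). Actg1 had lowest, median and highest levels of 8906, 9888 and 11557 CPM in control DMSO and of 7973, 8696 and 9419 CPM in control torin 1. The 5 Ctu1 iKO DMSO libraries held 10191, 10241, 10423, 11135 and 11404 CPM, and those of Ctu1 iKO torin 1 6501, 6838 and 7229.8 CPM (lowest, median and highest). The control groups of Actg1 overlapped with each other, and its Ctu1 iKO torin 1 libraries lay below all others. The effect of torin 1 in Ctu1 iKO was -0.65 (adjusted p = 7.40e-08, edgeR) and the interaction -0.44 (SE 0.09, adjusted p = 0.0165, edgeR). Vdac1 was chosen after its values were seen and gave -0.46 (SE 0.10, adjusted p = 0.0168, edgeR), with 84.2% and 61.1% of its footprints left.

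Additive responses ran in both directions, with 286 genes lower and 236 higher under torin 1 in control. Ybx1, the mRNA-binding Y-box protein, had the largest additive decrease. Control DMSO libraries held 781, 895 and 985 CPM of Ybx1 (lowest, median and highest), and control torin 1 libraries 307, 336 and 462 CPM. In Ctu1 iKO, Ybx1 stood at 569, 577, 612, 718 and 729.7 CPM with DMSO and at 181, 234 and 258 CPM with torin 1 (lowest, median and highest). Its torin 1 effects were -1.30 and -1.51, and the interaction of -0.21 had an interval from -0.55 to 0.13. The Ctu1 iKO DMSO libraries of Ybx1 lay below every control DMSO library, and every Ctu1 iKO torin 1 library lay below all others although the interaction was not called. Rps29, Rpl5, Srfbp1 and Tlcd1 were the next additive decreases, with torin 1 effects in control between -1.03 and -0.94.

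Among the additive increases, Sgk1, a kinase activated by mTORC2, came first. The footprint level of Sgk1 ran from 275 to 446 CPM in control DMSO (median 326) and from 731 to 1043 CPM in control torin 1 (median 888). It was 337, 343, 418, 442 and 488 CPM in the Ctu1 iKO DMSO libraries and ran from 737 to 1257 CPM in Ctu1 iKO torin 1 (median 1076). Both torin 1 groups lay above all DMSO libraries and overlapped with each other. Torin 1 raised Sgk1 by 1.38 in control and by 1.35 in Ctu1 iKO on the log2 scale, and the interaction was -0.03 (95% interval from -0.44 to 0.39). Arid5b, a DNA-binding protein, rose by 1.26 and 1.27. The nuclear receptor Nr1d2 rose by 1.04 in both genotypes, the phosphatase Dusp4 by 1.03 and 1.15, and the transcription factor Foxo3 by 0.89 and 0.80. The intervals of all 5 interactions lay within the margin of 1.5-fold. Of the 24 FoxO-type growth brakes, 12 rose in control and 15 in Ctu1 iKO (against 2.82% and 5.66% called higher among all genes), none had a called interaction, 4 were additive and 12 unresolved.

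In edgeR's test of all 23 libraries without a term for replicates, no interaction was called in the positive direction at the count minimum used, and the smallest adjusted p of a positive value was 0.0649 (Tac1, below the count minimum for naming). With 10 counts required in every library, Tac1 was called, and DESeq2 called Emsy, Lpar1 and Mecom. Without the 4 cultures named above, 45 genes were called, 42 of them among the 64 and 2 of them higher (Emsy and Tac1). A term for replicates 1 and 2 against 3 to 6 called 5 genes higher (Emsy, Haus5, Ifrd1, Spindoc and Tac1), and 9 of the 23 fits that left out 1 library called 1 or 2. By unadjusted p, Spindoc and Emsy, both nuclear proteins, came next. Spindoc had lowest, median and highest levels of 7.89, 9.41 and 11.7 CPM in control DMSO and of 7.57, 9.20 and 11.6 CPM in control torin 1. The 5 Ctu1 iKO DMSO libraries held 4.79, 5.21, 5.34, 5.45 and 6.33 CPM, and those of Ctu1 iKO torin 1 7.96, 8.76 and 13.8 CPM (lowest, median and highest). Spindoc had torin 1 effects of -0.06 in control and 0.88 in Ctu1 iKO, and an interaction of 0.94 (adjusted p = 0.066, edgeR). Its Ctu1 iKO DMSO libraries lay below every control DMSO library, and the torin 1 groups of both genotypes overlapped. Emsy followed the same order, with an interaction of 0.75 (adjusted p = 0.0761, edgeR). Lpar1, a receptor for lysophosphatidic acid, and Mecom, a zinc finger transcription factor, differed from these in that their DMSO groups overlapped and their highest medians lay in Ctu1 iKO torin 1. Control DMSO libraries held 69.3, 88.3 and 100.4 CPM of Lpar1 (lowest, median and highest), and control torin 1 libraries 70.1, 89.2 and 125 CPM. In Ctu1 iKO, Lpar1 stood at 82.8, 83.8, 85.7, 91.2 and 91.4 CPM with DMSO and at 122, 155 and 163 CPM with torin 1 (lowest, median and highest). The interactions were 0.63 for Lpar1 (adjusted p = 0.109, edgeR) and 0.56 for Mecom (adjusted p = 0.136, edgeR). DESeq2 gave them adjusted p-values of 0.0171 and 0.0251, and Lpar1 was also called by edgeR without control torin 1 replicate 1. The other 6 genes named in this direction, Haus5, Ndst2, Msl3, Zgpat, Garem1 and Zscan12, had interactions between 0.59 and 1.45, and none passed the threshold in edgeR's test of all libraries without a term for replicates. Of these 6, Haus5 and Ndst2 were called in 1 each of the fits without 1 library (without Ctu1 iKO torin 1 replicate 5 and control torin 1 replicate 2), and Ndst2 also in replicates 3 to 6 alone.

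Outside the ribosomal proteins and TOP mRNAs, the gene lists held few called genes. Of the 40 translation initiation factors, 2 were called lower (Eif3f and Eif3h, also on the TOP list), against 0.649% of all genes, with a list median of -0.09. The remaining lists held 0 called genes in edgeR's test apart from Hspa8 and Actg1 above. Of the 82 nucleolar biogenesis factors, 17 were called lower with torin 1 in control and 17 in Ctu1 iKO, against 4.03% and 6.34% of all genes, with a median effect of -0.28 in control and -0.24 in Ctu1 iKO, a median interaction of 0.04 and 1 unadjusted p under 0.05. That value belongs to Npm1, the nucleolar chaperone, which had an interaction of -0.53 (adjusted p = 0.0979, edgeR). Npm1 was called in 5 alternative fits. These were 1 of 23 fits without 1 library, DESeq2 (adjusted p = 0.0124), replicates 3 to 6 alone, a term for replicates 1 and 2 and a replicate block. The 78 mitochondrial ribosomal proteins, which are encoded in the nucleus, had a median of -0.09 with 55 values below 0 and 3 unadjusted p under 0.05. Of all 9857 genes tested, 4747 had a value below 0 and 454 an unadjusted p under 0.05. The U34 tRNA modification enzymes had a median of 0.00 over 13 genes, with 0.05 for Ctu2 (95% interval from -0.36 to 0.45) and 0.00 for Elp3 (from -0.39 to 0.40).

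In the stress and quality control lists, median interactions were -0.09 for 37 ATF4 and integrated stress response genes, -0.04 for 36 aminoacyl-tRNA synthetases, -0.04 for 31 unfolded protein response genes, -0.07 for the heat shock proteins and 0.00 for 30 ribosome stalling and quality control genes. In the growth and signalling lists, they were 0.13 for the FoxO-type growth brakes, 0.06 for 32 MAPK output genes, 0.04 for 43 mTOR regulators, 0.00 for 36 lysosome and autophagy genes, 0.05 for 43 kinesins and spindle genes, 0.03 for 39 replication genes and -0.05 for 16 p53 targets. In the metabolic and structural lists, they were 0.08 for 25 cholesterol genes, 0.01 for 20 glycolysis genes, -0.07 for 32 proteasome subunits, 0.12 for 33 matrix genes, 0.00 for the actin genes and -0.03 for 25 interferon response genes. The median over all genes tested was 0.01, and these lists lay between -0.09 and 0.13.

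**Figure D5:**
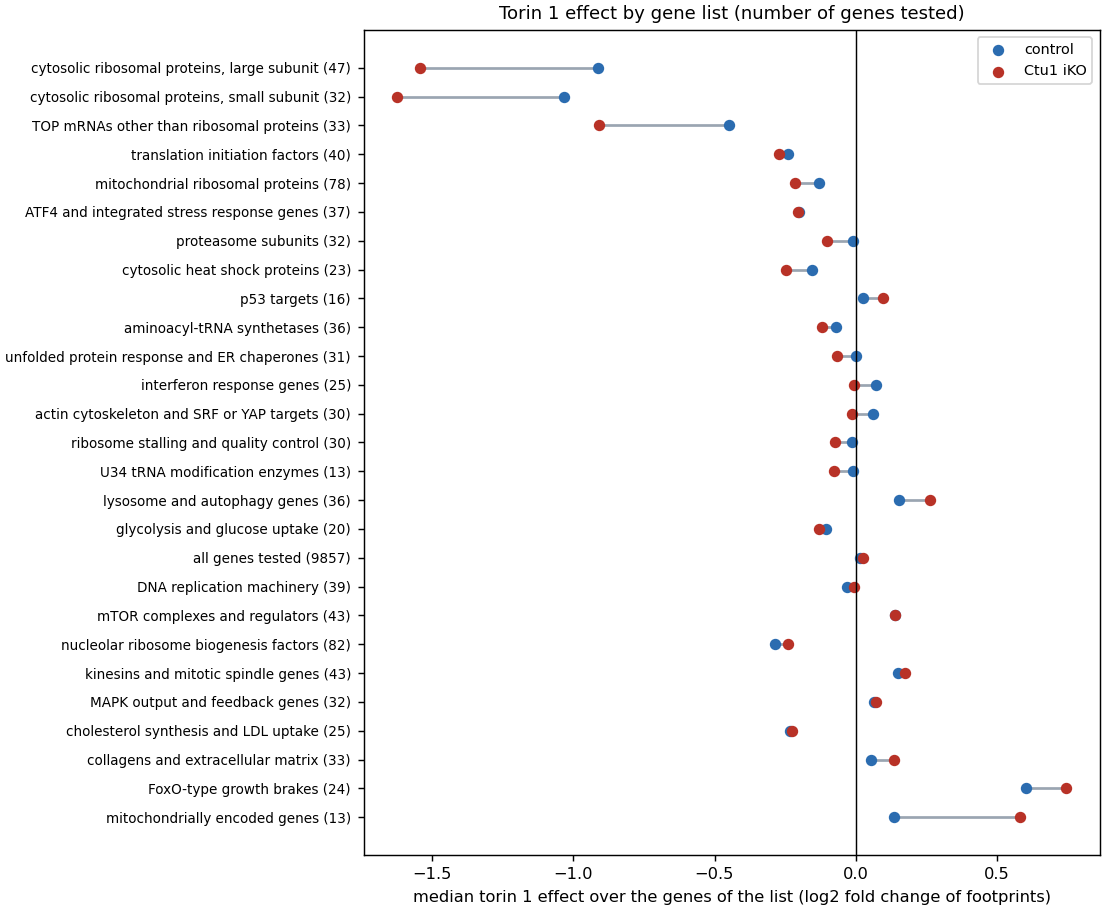
Median torin 1 effect on footprints (horizontal axis, log2 fold change) over the genes of each list, in control (blue) and in Ctu1 iKO (red), with the number of genes tested in parentheses. Control and Ctu1 iKO lie farthest apart for both ribosomal protein lists, the other TOP mRNAs and the mitochondrially encoded genes, and close together for the nucleolar factors.

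Transcripts of the same cultures showed no called interaction. Of 9634 genes tested in RNA-seq, 0 (0%) were called by edgeR and 0 by DESeq2, and 353 had an unadjusted p under 0.05. The same edgeR fit called 115 torin 1 effects in control but 0 in Ctu1 iKO. The 0 interactions with all libraries therefore do not show that transcripts lack one. Without the 4 cultures, 1354 torin 1 effects were called in Ctu1 iKO, and in replicates 1 to 3 alone 1708. The RNA-seq interaction of the ribosomal proteins had a median of -0.09 with all libraries, and 73 of 79 values lay below 0. This direction rested on the libraries whose profiles lay against their labels. Without the 4 cultures the median was 0.09, with 7 of 79 values below 0, and in replicates 1 to 3 alone it was 0.00, with 39 of 79 below 0, and 0 genes were called in both cases. In footprints the median of the same genes was -0.64 with and without the 4 cultures. Footprint values were therefore not divided by transcript values.

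The AAA content of coding sequences was compared with the footprint level in each library, as the slope of log2(CPM + 1) on the percentage of AAA codons over 9776 genes. Slopes per percentage point came to 0.070 ± 0.027 in control DMSO (SD, n = 6), 0.063 ± 0.040 in control torin 1 (SD, n = 6), 0.067 ± 0.042 in Ctu1 iKO DMSO (SD, n = 5) and 0.054 ± 0.039 in Ctu1 iKO torin 1 (SD, n = 6). The torin 1 difference in Ctu1 iKO minus that in control was -0.0059, with an interval from -0.075 to 0.066 (two-sided exact permutation test with genotypes exchanged within treatments, p = 0.845). No interaction along AAA content was detectable at this spread, and the interval reached about as far to either side as the slopes were large. Within the ribosomal proteins, the median AAA content was 3.61% in the 39 called and 3.11% in the 40 not called genes, against 2.19% over all genes, which is given as a description without a test.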

How the data were processed

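Ribosome footprints of EPP2 cells were trimmed by the authors with cutadapt 3.4, fragments below the authors' length limit were dropped, molecular identifiers were extracted with UMI-tools 1.1.1 (collapsing is not given in the sources used here), rRNA reads were removed, and reads were counted per gene with STAR 2.5.3a. The submitters' processing notes name GRCm38/mm10 and the methods a human build, while the symbols are those of mouse. Both assays were deposited by the authors as raw counts per gene. RNA-seq libraries were stranded poly(A) libraries counted in a facility workflow, with totals of 129881946 to 325494304.

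Testing was limited to genes with 10 or more counts on average and used edgeR 4.0.16 (R 4.3.3, TMM, robust quasi-likelihood test) in 1 fit of all 23 libraries of an assay without a replicate term. The p-values from edgeR were adjusted over all genes tested by the Benjamini-Hochberg method, and a gene was called under 0.05. Standard errors and 95% intervals come from the same fit. Alternatives were DESeq2 1.42.0, other scalings and count filters, a replicate block, a term for replicates 1 and 2, subsets of replicates, other additive margins and leaving out each library. Fits were tested on simulated counts. Named genes were Ctu1, Ctu2, Elp3, Rpl29, Rps25 and Rps3, the 10 largest called interactions per direction with a mean of at least 100 counts (filled by unadjusted p where fewer were called), 5 additive genes per direction, and the called members and the largest 4 of each of 26 lists. Some results are not reported here. The genes and lists were chosen with earlier results of these data known. Coding sequences were taken from GENCODE M21, and starts from RefSeq, where 7829 genes matched an annotated start. Slopes, permutation tests and figures used Python 3.11.15, numpy 2.4.6, pandas 2.3.3, scipy 1.17.1 and matplotlib 3.10.9.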

Additional observations from a re-analysis of the deposited data

Results flagged for a closer look

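The torin 1 effect differed between the genotypes, by the test of the interaction itself, for 64 genes. The 10 largest of these interactions on the log2 scale were -1.36 for Khdrbs2, -1.22 for Eef1a1, -1.17 for Rps12, -1.01 for Rps2, -1.01 for Rps27, -1.0 for Rps18, -0.99 for Rps18-ps5, -0.98 for Rps18-ps6, -0.94 for Rps27rt and -0.94 for Rpl27a (each with an adjusted p under the threshold in edgeR's quasi-likelihood test, and each negative in replicates 1 and 2 alone and in replicates 3 to 6 alone). Both parts belong to the libraries by which these genes were selected, so the shared sign is not a separate test. Khdrbs2, Rps18-ps5, Rps18-ps6 and Rps27rt hold stretches that match Rps3a1, Rps18 or Rps27, and their part in these counts was not tested.

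Among the shares of the gene lists, 1 sample lay apart from its group. The other TOP mRNAs took 4.72% of the counts in control DMSO replicate 5, which was also the deepest footprint library with 52907878 counts. Among the genes named, 35 of 648 groups of libraries held a sample apart from the others, where chance alone gives about 1 in 20, and 11 of these samples were Ctu1 iKO torin 1 replicate 1, the library with the fewest counts, and 8 were control torin 1 replicate 1.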

How the results depend on the processing

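The direction of no named called interaction was reversed under any alternative. These genes were selected by the interaction in the same libraries, so a kept direction is not a separate test. Of their 1854 values under alternatives, 258 lost the call. Replicates 1 and 2 alone called 1 interaction, 127 torin 1 effects in control and 254 in Ctu1 iKO, and gave 1 stronger, 18 additive and 241 unresolved responses and 1 called ribosomal protein or TOP gene, where all libraries gave 47. DESeq2 called 109 interactions and 71 of these genes. Of 33 pairs of samples with the same replicate number, 30 had correlated deviations from the group means (0.252 to 0.641), the 3 pairs with Ctu1 iKO DMSO 4 lay between -0.067 and 0.012, and 26 correlated best with their own number, a hint from the data that the labels do not give. A replicate block called 142 interactions, 7 of them higher (Garem1, Ifrd1, Jph2, Lpar1, Rcan1, Spindoc and Tac1), 1379 and 2114 torin 1 effects in control and Ctu1 iKO and 87 ribosomal protein or TOP genes (34 of the 40 ribosomal proteins that missed the threshold without it among them), with 131 stronger, 2 weaker, 9 opposite and 1325 additive responses. Paired in this way, the AAA slope interaction was -0.0076 (exact sign-flip permutation test, p = 0.75). A term for replicates 1 and 2 against 3 to 6 gave 122, 1119, 1808, 76, 112, 2, 8 and 1017 for the same quantities in that order, the higher calls left aside. Without the 4 cultures whose RNA-seq profiles lay against their labels, an alternative added after seeing the data, 704 torin 1 effects were called in Ctu1 iKO, and 42 responses were stronger, 3 opposite and 222 additive. The opposite class held 1 gene with 10 counts required in every library and 2 in replicates 3 to 6 alone. The narrower of the other additive margins tried gave 44 additive and 1228 unresolved responses and the wider, 2-fold, gave 1061 and 211. Without 1 library, there were 48 to 64 interactions, 541 to 813 and 986 to 1262 torin 1 effects, 48 to 64 stronger, 0 to 0 weaker, 0 to 2 opposite, 397 to 591 additive and 698 to 819 unresolved responses, 35 to 48 ribosomal protein or TOP genes, 0 RNA-seq interactions and AAA slope interactions from -0.016 to 0.0094. Scaling by library totals gave 69 interactions, 63 of them among the 64, and TMM factors from genes outside the ribosomal protein and TOP lists gave 68, with all 64 among them. The median count per gene was 454 in the unresolved and 1635 in the additive class, and the part of depth in this was not tested.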

Other observations

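Mitochondrially encoded genes are translated by mitochondrial ribosomes. All 13 had a positive interaction, with a median of 0.46 on the log2 scale, and 0 were called by edgeR, 0 of them reaching an unadjusted p under 0.05. The median was 0.61 in replicates 1 and 2 alone and 0.30 in replicates 3 to 6 alone. The share of these 13 genes in footprint counts was 1.23% to 1.75% in control DMSO, 1.03% to 2.31% in control torin 1, 0.744% to 1.65% in Ctu1 iKO DMSO and 1.27% to 3.95% in Ctu1 iKO torin 1, and all groups overlapped. The share of 3.95% was that of Ctu1 iKO torin 1 replicate 1. The largest of these interactions was that of mt-Co2, a subunit of cytochrome c oxidase, at 0.64.

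Pfkfb3, which makes the activator of glycolytic phosphofructokinase, had torin 1 effects of -1.53 in control and -0.48 in Ctu1 iKO, and its interaction of 1.05 was not called (adjusted p = 0.829, edgeR). For Pfkfb3, control DMSO replicate 4 lay apart from its group at 46.5 CPM and Ctu1 iKO torin 1 replicate 1 at 5.08 CPM. Gtpbp2, a factor for stalled ribosomes, had an interaction of 0.94 that was not called either (adjusted p = 0.789, edgeR). Rack1, a small subunit protein that takes part in ribosome quality control, had an interaction of -0.44 (adjusted p = 0.204, edgeR) with torin 1 effects of -0.98 in control and -1.43 in Ctu1 iKO. The interaction of Rack1 was called in 3 alternative fits.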
